A study of Mus musculus with 16 samples.

Results

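The genes of the mitochondrial respiratory chain and of the ATP synthase were examined in pancreatic islets of 8 inbred mouse strains. Members were taken by name: genes listed as Nduf, Sdh, Uqcr, Cox4 to Cox8 or Atp5 subunits, and the protein genes of mitochondrial DNA listed with the prefix mt-. This gave 96 of the 54146 genes in the files, of which 83 lie in the nuclear genome and 13 in the mitochondrial genome. Complexes were assigned by the prefix of the name, so that Atp5s and Atp5sl, which are not settled subunits of the ATP synthase, count under complex V, and Ndufa4, now regarded as a subunit of complex IV, counts under complex I. On this basis the nuclear members comprised 36 genes of complex I, 4 of complex II, 8 of complex III, 18 of complex IV and 17 of the ATP synthase (complex V). The mitochondrial members comprised 7 genes of complex I, 1 of complex III, 3 of complex IV and 2 of complex V. Both sets were kept apart throughout.

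Islet RNA was profiled by mRNA sequencing in the strains 129S1_SvImJ (129), A_J (AJ), C57BL/6J (B6), CAST_EiJ (CAST), NOD_ShiLtJ (NOD), NZO_HlLtJ (NZO), PWK_PhJ (PWK) and WSB_EiJ (WSB). These strains are the founders of the Diversity Outbred mouse population. All mice were 26 weeks old and received a high-fat diet, so that no strain was measured on another diet. There were 91 libraries, 10 of 129, 14 of AJ, 18 of B6, 14 of CAST, 10 of NOD, 4 of NZO (1 male), 5 of PWK (1 female) and 16 of WSB. The labels do not say that each library is a separate mouse, so that p-values measure the spread between libraries, which may in part be technical. Collection, extraction and sequencing took place in several waves, and which library belonged to which wave is not stated, so that the part of the waves in the strain differences was not tested. The comparisons asked which members differed between the strains and between the sexes.

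The respiratory chain passes electrons from NADH (complex I) and succinate (complex II) through complex III to oxygen at complex IV, and the ATP synthase uses the resulting proton gradient to make ATP. In the beta cell, ATP made from glucose closes a potassium channel and thereby triggers insulin release. Mitochondrial DNA encodes core subunits of each complex except complex II, whose subunits are all nuclear, and the remaining subunits are made in the cytosol from nuclear genes. Several complex IV subunits exist as alternative isoforms, with the forms Cox6a2, Cox7a1 and Cox8b best known from heart and skeletal muscle.

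Some members have near-identical copies elsewhere in the genome, and these sequences are shown because reads from them cannot always be assigned. Ndufs5, an accessory subunit of complex I, shared 316 of 318 aligned coding bases with BC002163, a processed pseudogene on chromosome 16. The stretch of 75 bases from base 55 to base 129 of the coding sequence is given on build GRCm38, with the differing bases in capitals, for Ndufs5 at chr4:123715951-123716025 on the minus strand and for BC002163 at chr16:42955685-42955759 on the plus strand.
Ndufs5: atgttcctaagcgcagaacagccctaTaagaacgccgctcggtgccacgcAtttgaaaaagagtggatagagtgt
BC002163: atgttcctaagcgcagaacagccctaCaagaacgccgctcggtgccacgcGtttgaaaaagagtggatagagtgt

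Several mitochondrial genes have copies in a block of chromosome 1 that are annotated as pseudogenes. mt-Atp6, subunit a of the ATP synthase, was identical to Gm10925 over all 678 bases aligned. mt-Co2 was identical to Gm28661 over 681 bases, mt-Co3 to Gm28437 over 783 bases and mt-Nd4l to Gm10222 over 294 bases, whereas mt-Nd3 and Gm28438 shared 344 of 345 bases. The opening 75 bases of mt-Nd3 at chrM:9459-9533 on the plus strand and of Gm28438 at chr1:24613045-24613119 on the minus strand are given with the base that differs in capitals. For mt-Atp6 at chrM:7927-8001 on the plus strand and Gm10925 at chr1:24614577-24614651 on the minus strand a single sequence stands for both.
mt-Nd3: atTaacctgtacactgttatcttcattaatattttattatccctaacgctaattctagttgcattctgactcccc
Gm28438: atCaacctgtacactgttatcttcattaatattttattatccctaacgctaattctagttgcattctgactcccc
mt-Atp6 and Gm10925: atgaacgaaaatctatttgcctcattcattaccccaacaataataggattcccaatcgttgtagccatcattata

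The promoters of the nuclear members were searched for motifs of factors known to act on nuclear genes for mitochondrial proteins. RefSeq promoter windows on build GRCm38.p6, from 250 bases before to 50 bases after the start, matched 67 members. On either strand, the motif GCGCANGCG, a form of the site of NRF1 (nuclear respiratory factor), was present for 20 of the 67 members (29.9%) and for 7.03% of 27025 genes. The motif AAGATGGCG of YY1 was present for 8 members (11.9%) and for 1.64% of genes. The motif CCGGAAGTG of GABPA was present for 2 members (2.99%) and 2.25% of genes, and TCAAGGTCA, bound by estrogen-related receptors (ERR), for 2 members (2.99%) and 0.47% of genes. A match is only the presence of these letters, and no test was made of these shares. Promoter stretches of members described below are shown with the motif in capitals, in the direction of transcription, for Ndufs5 at chr4:123718246-123718314, Atp5h at chr11:115420022-115420090, Sdhd at chr9:50603890-50603958 and Atp5g3 at chr2:73911340-73911408, all transcribed from the minus strand.
Ndufs5, NRF1: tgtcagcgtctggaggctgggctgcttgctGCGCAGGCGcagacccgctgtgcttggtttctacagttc
Atp5h, NRF1: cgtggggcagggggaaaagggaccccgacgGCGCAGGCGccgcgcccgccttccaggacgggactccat
Sdhd, NRF1: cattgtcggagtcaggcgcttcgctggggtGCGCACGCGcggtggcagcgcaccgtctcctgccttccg
Atp5g3, ERR on the opposite strand: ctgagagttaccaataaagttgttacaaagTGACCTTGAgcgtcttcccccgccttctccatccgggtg

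The libraries held 16928552 to 35196145 expected counts (median 27485366), at which 3 counts make 0.0852 to 0.177 CPM, a floor that covers counting error only. All 10 beta cell markers and all 5 alpha cell markers of the lists used exceeded a mean of 1 TPM (a level scaled for transcript length and library total), as islets should. All 12 markers of acinar cells, the exocrine cells that surround islets, did so too. The summed acinar level varied between and within strains, from a mean of 8214 TPM in AJ (1913 to 24760 TPM) to 147500 TPM in CAST (18820 to 301300 TPM). The 12 lymphocyte markers summed to a mean of 522 TPM in NOD (14.6 to 1911 TPM) and to means of 8.94 to 46.8 TPM in the other strains, and the 8 macrophage markers to 912 TPM in NOD and 56 to 140 TPM elsewhere. In 12 libraries (6 labelled 129, 4 WSB and 2 NOD) the counts of sex-linked genes went against the labelled sex. In these whole-islet samples, fewer cells of a type and less RNA per cell cannot be told apart.

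The nuclear members were abundant transcripts. On the TPM scale, 79 of the 83 had a mean of at least 1 TPM, with a median of 70.2 TPM over all 83. The median level was 48.8 TPM for complex I, 59.3 TPM for complex II, 82.5 TPM for complex III, 75.2 TPM for complex IV and 92.2 TPM for complex V. Atp5b, the catalytic beta subunit of the ATP synthase, was the most abundant nuclear member at 333 TPM (234 to 516 TPM over the 91 libraries), above 99.4% of the protein-coding genes. Cox8a, the common form of the smallest complex IV subunit, had 224 TPM (118 to 287 TPM).

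Isoforms best known from other tissues were also read. Cox6a2 reached a mean of 77.7 TPM, beside 182 TPM for the ubiquitous form Cox6a1. Cox7a1 had 1.35 TPM beside 72.8 TPM for Cox7a2, Cox4i2 had 2.25 TPM beside 161 TPM for Cox4i1, and Cox6b2, known from testis, had 0.52 TPM beside 101 TPM for Cox6b1. The 8 striated muscle markers summed to means of only 3.57 to 6.55 TPM in the 8 strains. Cox8b, Cox8c and Cox7b2 did not pass the filter on low counts and were not tested, which left 80 nuclear members.

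Nearly all members differed between strains, and this also held for nearly all genes. The F test over all 8 strains (edgeR's quasi-likelihood test, Benjamini-Hochberg adjusted over 15217 genes) called 78 of the 80 nuclear members and all 13 mitochondrial members, where it called 97.4% of all genes tested. The nuclear members not called were Ndufa9 (adjusted p = 0.163) and Ndufs7 (adjusted p = 0.0694), which carries an iron-sulfur cluster of complex I. The nuclear members differed by less than most genes: the range of the strain means had a median of 0.38 on the log2 scale, against 0.87 for all genes tested and 1.08 for the mitochondrial members. A range of at least 1, which is a 2-fold difference or more, was seen for 8 nuclear and 7 mitochondrial members, where 44.4% of all genes were called with such a range. The spread between libraries of a strain had a median SD of 0.14 over the nuclear members on the same scale.

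Each strain was then compared with the mean of the other 7 strains. These contrasts share samples and are set side by side as values only. WSB stood above the others for most of the nuclear set. In WSB, 64 of 80 nuclear members were higher and 1 was lower, where 26.5% of all genes were higher and 29.6% lower. The median log2 difference was 0.19 over the nuclear members and -0.02 over all genes tested. The sum of the nuclear members was 127400 ± 6882 normalised counts (SD, n = 16) in WSB, from 117600 to 137800. It was 105500 ± 4119 (SD, n = 10) in 129, from 97940 to 110800, and the means of the other 6 strains lay from 112800 to 119200. The ranges of WSB and 129 did not overlap with each other, while both overlapped with other strains.

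**Figure D1:**
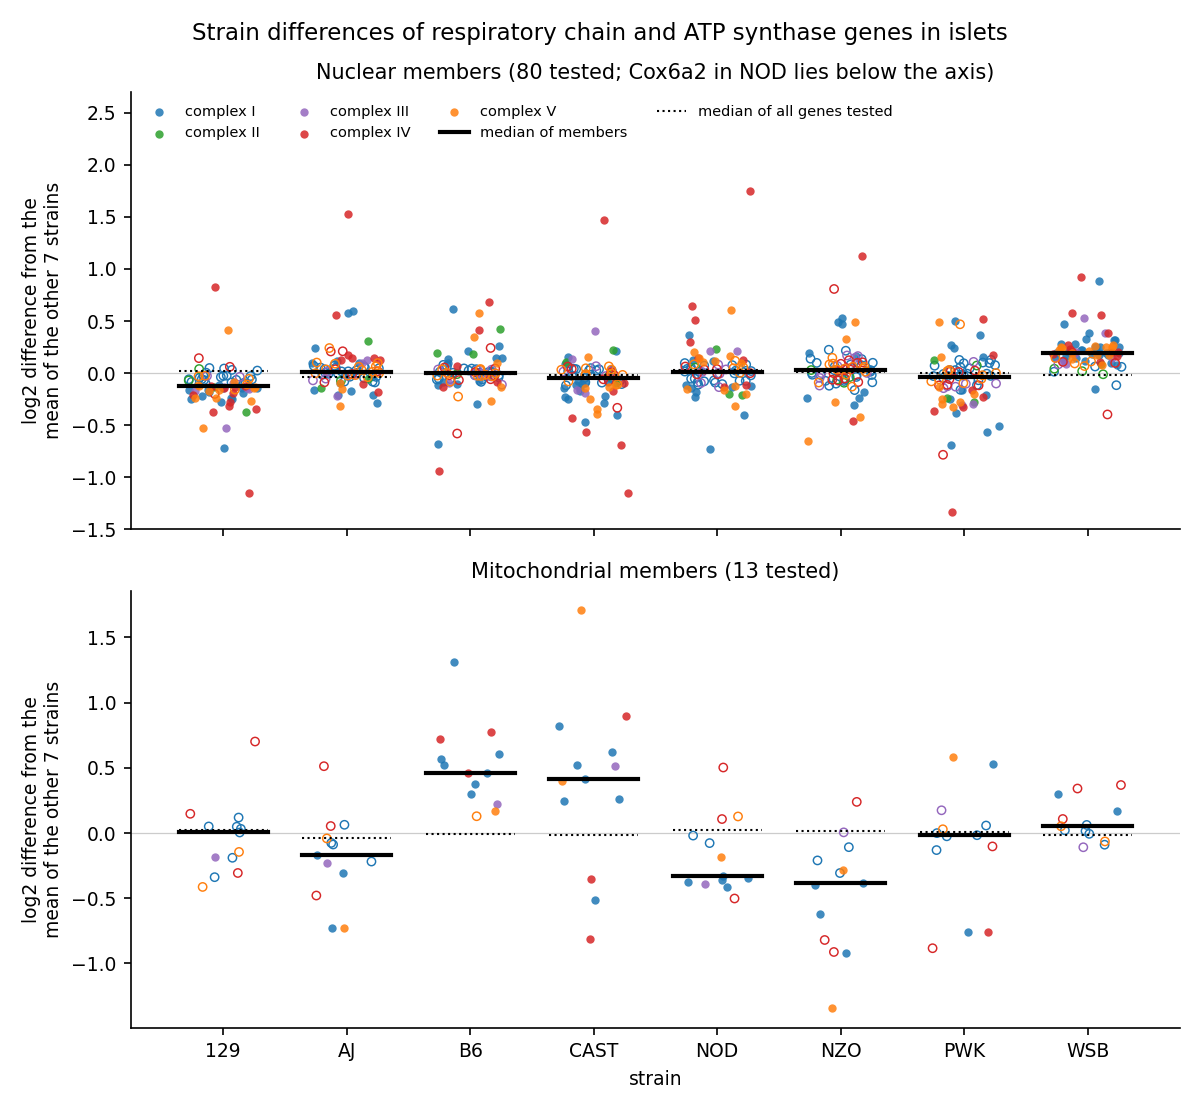
Log2 difference of each strain from the mean of the other 7 strains for the 80 nuclear members (top) and the 13 mitochondrial members (bottom) tested, from the fit to counts. Dots are genes coloured by complex, filled where the adjusted p was under 0.05 and open elsewhere, solid bars are the medians of the members and dotted bars those of all genes tested. In WSB the nuclear median is 0.19 and in 129 it is -0.13, and the mitochondrial medians in B6 and CAST are 0.46 and 0.42.

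The excess in WSB was spread over the complexes except complex II. In WSB, 31 of 36 nuclear members of complex I, 7 of 8 of complex III, 12 of 15 of complex IV and 13 of 17 of complex V were higher. Of complex II, which also serves the citric acid cycle, only Sdhc was called (0.09 ± 0.03 SE on the log2 scale, adjusted p = 0.0174), while Sdha, Sdhb and Sdhd differed by 0.04, -0.01 and 0.02. Within AJ, B6, CAST and WSB the call of Sdhc turned, at -0.09 (adjusted p = 0.0117), and Sdhd was lower too, at -0.09 (adjusted p = 0.00114). On log2(TPM + 1) Sdhc was at -0.06 (adjusted p = 0.656). The single member that was lower in WSB was Ndufs4, an accessory subunit of complex I, at -0.15. Most of these differences were small. Their upper and lower quartiles were 0.25 and 0.11, and Atp5b, for example, differed by 0.08 ± 0.03 (SE, adjusted p = 0.0313). Of the 80 nuclear members, 12 were higher in WSB than in each of the other 7 strains, where 286 of the 15217 genes tested were. The 12 members were Uqcrq, Ndufb8, Uqcr11, Ndufs5, Ndufc1, Ndufb10, Cox7a2, Atp5f1, Atp5k, Ndufs8, Atp5j2 and Ndufb6. Among them, Uqcrq, a small subunit of complex III, had 1453 ± 163 normalised counts (SD, n = 16; 1243 to 1893) in WSB and differed by 0.53 ± 0.07 (SE, adjusted p = 1.19e-10).

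The size of this difference depended on the scale. On log2(TPM + 1), in which all genes of a library share a fixed sum, the median of all genes in WSB was -0.12 and that of the nuclear members was 0.06, so that the members remained above all genes while 14 were called higher and 3 lower (8.97% and 36.3% of all genes). The members called higher on both scales included Cox6a2 (0.77 on the TPM scale), Ndufs5 (0.75), Cox7a2l (0.43), Uqcrq (0.37) and Ndufa12 (0.34). For Cox6a2 the mean of the other strains holds the low level of NOD. Within AJ, B6, CAST and WSB, a set without NOD, Cox6a2 was at 0.20 in the fit to counts (adjusted p = 0.0538). Of the 64 members higher in WSB, all 64 were again higher with a covariate for the mean acinar marker level and 58 with one for lymphocyte markers. In these fits 27.2% and 24.2% of all genes were higher. In the sums of the libraries of each strain and sex to 16 samples 33 were called, with a median of 0.21 over the nuclear members, where 14.9% of all genes were higher. Library numbers of AJ, B6, CAST and WSB were separate from those of the other strains. Within these 4 strains, with the range of library numbers as a term, WSB had 58 nuclear members higher and 3 lower, with medians of 0.19 for the members and 0.005 for all genes. There, 30.1% of all genes were higher and 27.8% lower. Without the libraries whose sex-linked counts went against the label, 56 members were higher and 2 lower, where 24% of all genes were higher and 24.7% lower.

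**Figure D2:**
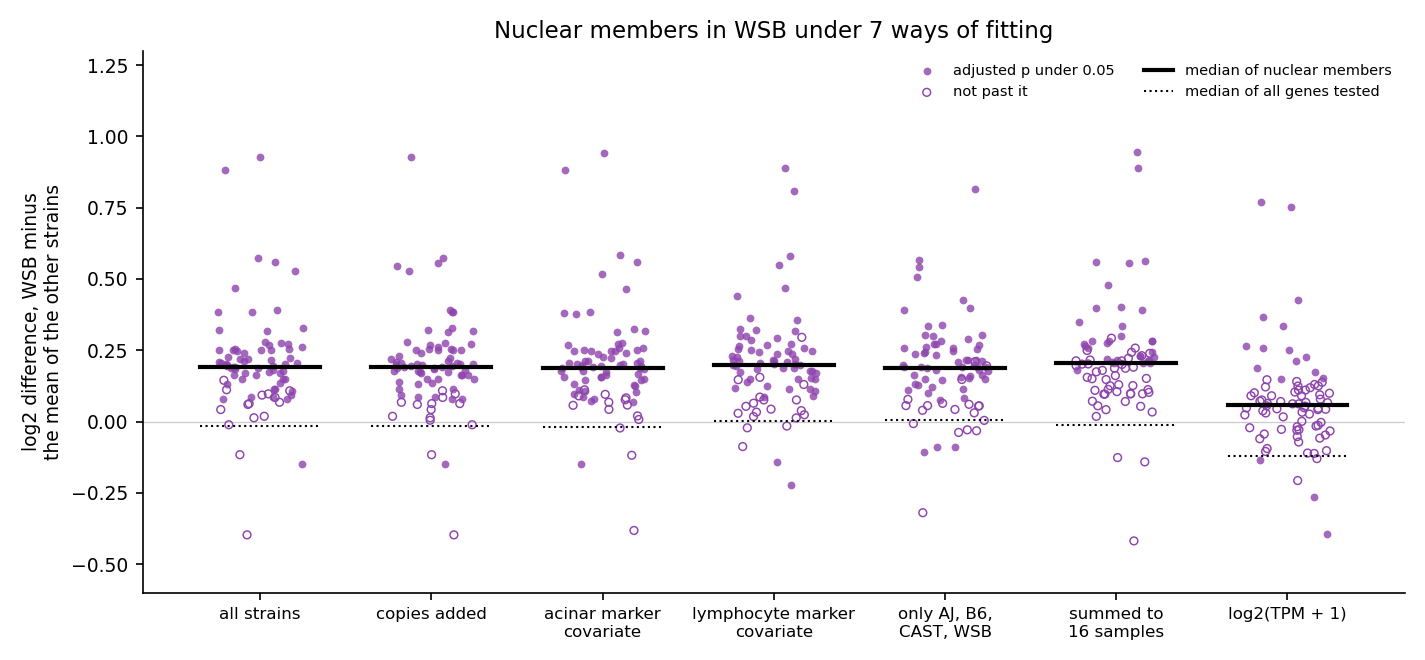
Log2 difference of WSB from the mean of the other strains for each of the 80 nuclear members under 7 ways of fitting, filled where the adjusted p was under 0.05. Solid bars are medians of the members and dotted bars medians of all genes tested. The median of the members lies near 0.19 for fits to counts, and at 0.06 on log2(TPM + 1), where the median of all genes is -0.12.

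In the fit to counts, many nuclear members were lower in 129. In 129, 45 nuclear members were lower and 2 higher, where 21% of all genes were lower and 27.9% higher, and 70 of the 80 differences were negative. The median was -0.13 over the members and 0.02 over all genes tested. By complex, 15 of 36 members of complex I, 2 of 4 of complex II, 6 of 8 of complex III, 11 of 15 of complex IV and 11 of 17 of complex V were lower. The members that were higher were Cox6a2 (0.83, against a mean that holds the low level of NOD) and Atp5s (0.41). Atp5s was included by its name, as a factor whose place in the enzyme is not settled here. This direction did not hold on the TPM scale, where 15 members were called higher and 4 lower in 129 (42.5% and 8.54% of all genes), with medians of 0.09 over the members and 0.18 over all genes, so that the members again lay below all genes. With a covariate for acinar markers 29 were lower (median -0.08), where 18.7% of all genes were. In the sums of 16 samples 13 were lower (median -0.12), where 11% of all genes were. Without the 6 libraries of 129 with sex-linked counts against their label and the 6 such libraries of other strains, 17 were lower (median -0.12), where 8.29% of all genes were. Within 129, NOD, NZO and PWK, which share a range of library numbers, 28 were lower and 5 higher, where 24.2% of all genes were lower and 26.5% higher.

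In the other strains, members called higher and lower were more evenly split in the fit to counts, with CAST and PWK having more lower than higher. In AJ, 16 nuclear members were higher and 14 lower, where 24.9% of all genes were higher and 32.1% lower. In B6, 16 were higher and 12 lower, beside 25.6% and 27.6% of all genes, and 3 of the 4 complex II members were among those higher. In CAST, 9 were higher and 29 lower (26.8% and 31% of all genes), with a median of -0.05 against -0.02 for all genes, and on the TPM scale 2 were higher and 65 lower, where 6.99% of all genes were higher and 48.6% lower. In NOD, 19 were higher and 18 lower (35.7% and 29.6% of all genes), and with a covariate for lymphocyte markers 3 and 4, where the shares of all genes fell to 10.1% and 9.42%. In NZO, with 4 libraries, 8 were higher and 8 lower (20% and 14.3% of all genes), and in PWK, with 5 libraries, 10 were higher and 22 lower (23.2% and 21.8% of all genes). On the TPM scale the split was 33 higher and 2 lower in AJ (27.2% and 15.2% of all genes), 5 and 36 in B6 (7.58% and 35.2%), 8 and 9 in NOD (25.4% and 23.7%), 6 and 2 in NZO (10.6% and 5.3%), and 9 and 4 in PWK (20.6% and 9.06%), with medians of all genes from -0.18 in CAST and -0.11 in B6 to 0.10 in PWK. With TMM scaling it was 25 and 9 in AJ (28.1% and 28.9% of all genes), 18 and 6 in B6 (28.3% and 25.3%) and 7 and 26 in PWK (22.1% and 22.9%). With a covariate for acinar markers it was 38 and 0 in AJ (21.9% and 27.2% of all genes) and 12 and 29 in NOD (34.3% and 30.5%). Within the strains of a shared range of library numbers it was 12 and 29 in AJ (27% and 27.7%), 28 and 8 in NOD (32.6% and 27.3%) and 18 and 2 in NZO (17.2% and 15.4%).

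The widest single difference was that of Cox6a2 in NOD. Cox6a2 (ENSMUSG00000030785.8, chromosome 7 of GRCm38, 128205435 to 128206387) encodes the muscle form of subunit 6a of complex IV. Its normalised counts in the 10 NOD libraries ran from 41.6 to 109, with a median of 74.8 and a mean of 72.9 ± 22.1 (SD). In the 81 libraries of the other strains they ran from 319 to 2741. The NOD libraries thus lay below every other library without overlap, which held for 1 other of 768 pairs of a member and a strain. Overlap was examined for members only, so that the share of all genes without overlap is not known. The difference was -3.90 ± 0.16 (SE, adjusted p = 1.84e-36). It was -3.79 with a covariate for lymphocyte markers, -3.85 with one for acinar markers and -3.66 within 129, NOD, NZO and PWK. Cox6a2 shares 70 exonic bases with Itgad on the opposite strand, which had a mean of 2.35 TPM.

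Cox6a2 varied in other strains as well. CAST had the highest level, 1908 ± 571 normalised counts (SD, n = 14; 1153 to 2741), a difference of 1.47 ± 0.09 (SE, adjusted p = 3.92e-25). The 4 NZO libraries had 1014, 488, 336 and 319 counts, so that 1 of them lay within the range of AJ (668 to 1204) and 3 below it, and the difference was -0.46 ± 0.19 (SE, adjusted p = 0.0444). Within 129, NOD, NZO and PWK the sign of the NZO difference turned and the call was lost (0.29, adjusted p = 0.336). In both contrasts the low NOD level enters the mean of the other strains, with more weight among fewer strains. All 4 NZO libraries lay below the means of 129 and PWK. 129 (1268 ± 212, SD, n = 10), WSB (1324 ± 290, n = 16), PWK (1107 ± 185, n = 5) and B6 (995 ± 254, n = 18) overlapped. The difference in WSB was 0.93 ± 0.09 (SE, adjusted p = 7.19e-15) against all other strains, and 0.20 (adjusted p = 0.0538) within AJ, B6, CAST and WSB, a set without NOD. As a share of the summed TPM of Cox6a1 and Cox6a2, Cox6a2 made up 2.80% ± 0.81 (SD, n = 10) in NOD, 16.4% ± 8.8 in NZO, 25.2% ± 3.0 in AJ, 29.9% ± 7.1 in B6, 30.4% ± 2.1 in PWK, 31.4% ± 4.7 in WSB, 36.2% ± 2.8 in 129 and 42.7% ± 7.4 in CAST. Cox6a1 itself differed little in NOD, at 2049 ± 133 normalised counts and -0.0001 ± 0.05 (SE, adjusted p = 0.999).

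The other isoforms of complex IV each had their own order of strains. Cox4i2, known from lung and from oxygen sensing, was highest in NZO at 63.6 ± 20.3 normalised counts (SD, n = 4; 67.25, 41.1, 56.7 and 89.4 in its libraries) and lowest in 129 at 15.95 ± 3.77 (n = 10; 9.24 to 22.7). B6 at 18.1 ± 5.5 and CAST at 21.2 ± 7.1 overlapped with 129, and AJ, NOD and WSB lay together at 43.7 to 45.4. The differences were 1.12 ± 0.18 (SE, adjusted p = 1.77e-07) in NZO, -1.15 ± 0.15 (adjusted p = 3.68e-10) in 129, -0.94 in B6 and -0.69 in CAST. Cox7a1, the heart and muscle form of subunit 7a, was highest in AJ at 20.1 ± 9.5 normalised counts (n = 14; 12.4 to 48.8), a difference of 1.52 ± 0.18 (adjusted p = 6.88e-12). Its 5 PWK libraries had 5.43, 3.13, 3.08, 0 and 6.30 counts, a difference of -1.33 ± 0.39 (adjusted p = 0.0032), and such counts are close to the floor of 3. Cox6b2 was higher in NOD at 11.6 ± 7.0 normalised counts (n = 10; 0 to 22), a difference of 1.75 ± 0.27 (adjusted p = 2.48e-08), and it lay under 1 TPM in the mean over all libraries.

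Among the common subunits of complex IV, Cox5a was higher in NOD. Cox5a (chromosome 9, 57521274 to 57532426) had 1079 ± 197 normalised counts in NOD (SD, n = 10; 876 to 1505, median 1023) and strain means of 583 to 778 elsewhere, and its NOD range overlapped the upper libraries of B6 (548 to 1046) and CAST (595 to 1089). The difference was 0.64 ± 0.06 (SE, adjusted p = 4.05e-16), or 0.41 (adjusted p = 0.00267) with a covariate for lymphocyte markers, whose part in the result was not tested further. Cox7a2l, which helps to join complexes III and IV, was higher in B6 at 4768 ± 597 (n = 18; 3977 to 5882), a difference of 0.68 ± 0.03 (adjusted p = 1.51e-31), and in WSB at 4449 ± 427 (n = 16), a difference of 0.56 ± 0.04. It was lower in CAST at 2217 ± 266 (n = 14; 1823 to 2858), a difference of -0.57 ± 0.04 (adjusted p = 3.09e-22). Cox4i1, Cox6b1 and Cox8a differed by at most 0.20 in any strain.

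In complex I, the core subunits Ndufs1, Ndufs3, Ndufs7, Ndufs8 and Ndufv2, which carry redox centres or anchor them, had differences from -0.21 to 0.25 across the 8 strains.

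Ndufv1, the core subunit that binds NADH, separated into groups of libraries within AJ. Of the 14 AJ libraries, 6 had 790 to 845 normalised counts and 8 had 1434 to 1607, with none between, whereas the libraries of the other strains lay from 1191 to 1970. This gap of 0.76 on the log2 scale was the widest of 294 pairs of a nuclear member and a strain examined (76 members with a mean of at least 100 normalised counts, and at least 2 libraries on each side of the gap). It was looked for after the values had been seen. By label, the 4 AJ females numbered 25 to 31 had 1434 to 1570 counts and the 3 AJ females numbered 59 to 62 had 792 to 833. Of the 4 AJ males numbered 28 to 32, 3 were among the low libraries, while the 3 males numbered 63 to 65 had 1483 to 1607. Neither sex nor the range of library numbers alone separated the low libraries, and no AJ library had sex-linked counts against its label. The difference of AJ from the other strains, -0.28 ± 0.06 (SE, adjusted p = 1.15e-04), is thus a mean over distinct levels. PWK, with 1662, 1970, 1871, 1576 and 1913 counts, was higher by 0.37 ± 0.10 (SE, adjusted p = 9.84e-04).

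**Figure D3:**
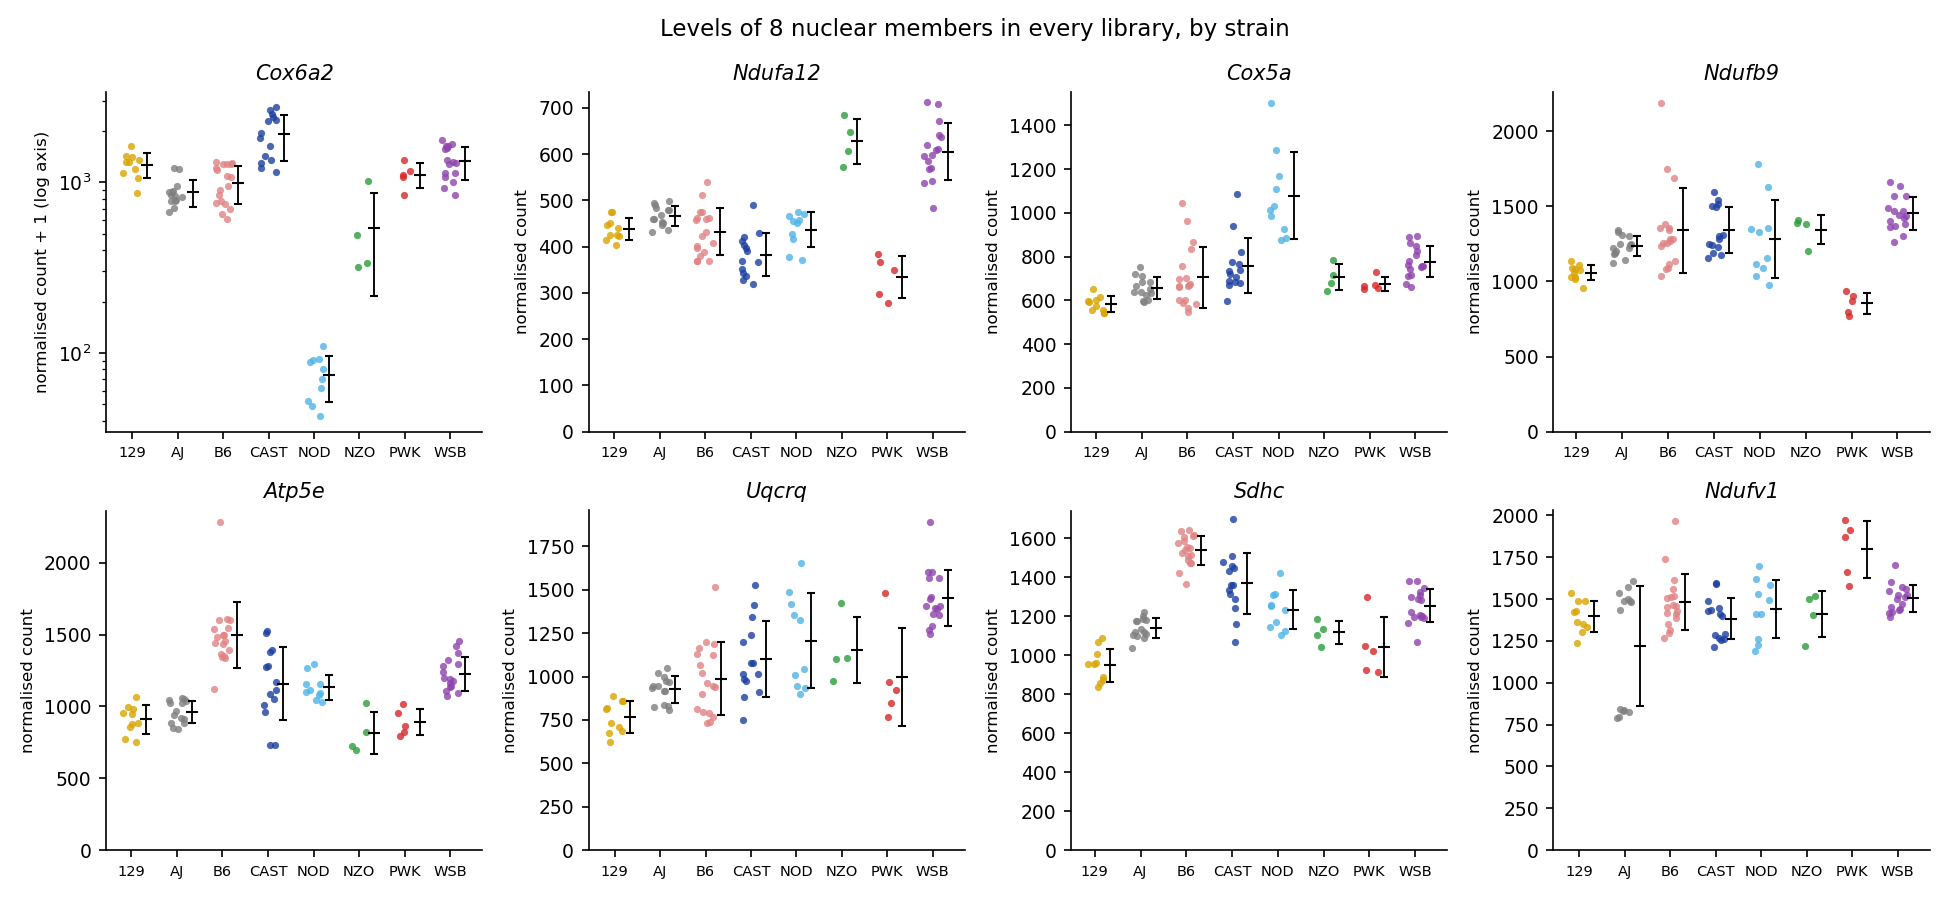
Normalised counts of 8 nuclear members in each library (dots) by strain, with the mean and SD beside them, on linear axes except for Cox6a2 (log axis, count + 1). The 10 NOD libraries of Cox6a2 lie below all others, the 5 PWK libraries of Ndufb9 lie below all others, and the AJ libraries of Ndufv1 fall at 790 to 845 and at 1434 to 1607.

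Some accessory subunits of complex I differed more between strains. Ndufb9 (chromosome 15, 58933756 to 58939488), a subunit of the membrane arm, had 867, 936, 771, 797 and 904 normalised counts in the 5 PWK libraries and 958 to 2189 in the 86 others. PWK lay below every other library, with a difference of -0.57 ± 0.09 (SE, adjusted p = 1.09e-07). Ndufa6 was lower in CAST at 712 ± 82.4 (SD, n = 14; 580 to 818), a difference of -0.47 ± 0.05 (adjusted p = 1.36e-13), where the other strain means were 921 to 1091. Ndufa12 was higher in NZO (572, 647, 607 and 685 counts) by 0.53 ± 0.07 (adjusted p = 1.82e-09) and in WSB (606 ± 61, n = 16; 483 to 713) by 0.47 ± 0.04, and lower in PWK (278, 384, 349, 297 and 366 counts) by -0.51 ± 0.07 (adjusted p = 3.65e-09). The NZO and WSB libraries overlapped, and all PWK libraries were below both. The near-identical copy of Ndufa12, Gm15920, was listed at 0.14 TPM in B6 and higher in each other strain. In TPM, Ndufa12 itself was lowest in CAST (29.63 ± 6.94), followed by PWK (30.86 ± 6.39). In the summed TPM, B6 (33.87 ± 5.68) and CAST (35.64 ± 7.675) lay below PWK (40.38 ± 6.75), so that PWK was not lowest. NZO (71.95 ± 3.46) and WSB (66.23 ± 9.64) stayed highest.

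Complex II genes differed by strain in the fit to counts. Sdhc, a membrane anchor, was highest in B6 at 1539 ± 75.3 normalised counts (SD, n = 18; 1366 to 1641), a difference of 0.42 ± 0.03 (SE, adjusted p = 1.09e-21), and lowest in 129 at 948 ± 85.4 (n = 10; 839 to 1087), a difference of -0.38 ± 0.04 (adjusted p = 4.50e-13). The ranges of B6 and 129 did not overlap. On log2(TPM + 1) neither call held, at 0.12 (adjusted p = 0.351) in B6 and -0.14 (adjusted p = 0.333) in 129. Sdha, the flavoprotein, was also highest in B6 at 5414 ± 194 (5139 to 5832; 0.19 ± 0.02, adjusted p = 3.81e-13) and lowest in NOD at 4227 ± 274 (3791 to 4625; -0.21 ± 0.03). Sdhd, the other anchor, was highest in AJ at 2232 ± 110 (2033 to 2422; 0.31 ± 0.03) and lowest in PWK at 1557 ± 123 (-0.28 ± 0.05), of which the call in PWK was lost on log2(TPM + 1) (-0.15, adjusted p = 0.436). Sdhb, the iron-sulfur subunit, was higher in NOD at 1327 ± 102 (0.23 ± 0.05, adjusted p = 5.87e-05).

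In complex III, Uqcrc1, a core subunit without a redox centre, was highest in CAST at 2691 ± 335 normalised counts (SD, n = 14; 1908 to 3199), a difference of 0.40 ± 0.04 (SE, adjusted p = 6.03e-14). Uqcrfs1, the Rieske iron-sulfur protein, was lowest in PWK with 1159, 1202, 1087, 1257 and 1361 counts, a difference of -0.30 ± 0.06 (adjusted p = 4.09e-05), where the other strain means were 1415 to 1571. Of the 22 nuclear members lower in PWK in the fit to counts, 4 were again called lower on log2(TPM + 1). Uqcrq was lowest in 129 at 767 ± 93.5 (n = 10; 621 to 890), a difference of -0.53 ± 0.09 (adjusted p = 4.32e-07), and did not overlap with WSB.

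In the ATP synthase, Atp5e, the epsilon subunit of the central stalk, was highest in B6 at 1495 ± 231 normalised counts (SD, n = 18; 1121 to 2283), a difference of 0.57 ± 0.05 (SE, adjusted p = 8.19e-17). NZO was lowest at 816 ± 148 (n = 4; -0.42 ± 0.11, adjusted p = 8.06e-04). Atp5h, subunit d of the peripheral stalk, was lower in CAST at 1190 ± 177 (n = 14; 825 to 1453), a difference of -0.34 ± 0.04 (adjusted p = 6.92e-13). Its copy Gm10250 was listed at 20.4 ± 18.5 TPM in CAST, 7.65 TPM in PWK and under 0.2 TPM in the mean of each other strain, and with the copy added the difference of CAST was -0.12 (adjusted p = 5.28e-04). Atp5g1, Atp5g2 and Atp5g3 all encode the c subunit of the rotor. Atp5g3 was listed at 161 TPM and differed by at most 0.25, whereas Atp5g1 was higher in NZO (1492, 1390, 1590 and 2031 counts; 0.49 ± 0.12, adjusted p = 6.30e-04) and in PWK (1147, 1627, 1570, 1757 and 1947 counts; 0.49 ± 0.11), and lower in 129 at 871 ± 107 (-0.53 ± 0.09, adjusted p = 4.49e-07).

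Some of the largest differences changed when near-identical copies were counted with the member. Copies were annotated genes that shared at least 50 windows of 75 bases with a member. Ndufs5 had 925 ± 69.7 normalised counts in WSB (SD, n = 16; 818 to 1089), 788 ± 63.4 in B6, 767 ± 60.4 in AJ and 725 ± 75.7 in NZO, but 421 ± 121 in CAST and 348 to 350 in NOD, 129 and PWK. The differences ran from 0.88 ± 0.05 (SE, adjusted p = 1.23e-25) in WSB to -0.73 ± 0.07 (adjusted p = 1.30e-14) in NOD. The copy BC002163 was listed at means of 0.13 to 0.30 TPM in AJ, B6, NZO and WSB, and at 82 ± 11.2 TPM in 129, 73.5 ± 18 in NOD, 88.1 ± 19.7 in PWK and 47.5 ± 14.2 in CAST. With both added, Ndufs5 remained higher in WSB (0.31, adjusted p = 5.58e-13) and lower in CAST (-0.13, adjusted p = 0.00191), and the other 6 strains differed by -0.10 to 0.05 with adjusted p from 0.0556 to 0.849. The order of strains differed in the summed TPM, in which each gene is divided by its own length. There WSB (86 ± 12.3 TPM) and CAST (85.5 ± 15.1 TPM) lay below PWK (125.5 ± 26.6 TPM), 129 (121.5 ± 12.4 TPM) and NOD (108 ± 26.8 TPM), so that WSB was not the highest. In the 14 CAST libraries, the TPM of Ndufs5 ran from 18.2 to 65.8, that of the copy from 29.5 to 74.9 and their sum from 61.1 to 107.

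The same was seen for other members with copies. For Cox7a2l, the copy Gm6969 had 4.42 ± 1.60 TPM in B6 and means of 99.7 to 140 TPM in the other strains, and adding it took the difference in B6 from 0.68 to 0.38 (adjusted p = 6.85e-17) while WSB stayed at 0.54. In the summed TPM the direction in B6 turned, with 197 ± 36.5 TPM in B6 beside 185 ± 43 in CAST and 245 to 319 in the means of the other 6 strains. For Cox5b, the copy Gm11273 had 33.7 ± 6.1 TPM in CAST and 36.5 ± 7.1 in PWK and at most 0.28 TPM in the mean elsewhere. Adding it took the difference of Cox5b from -0.43 to -0.10 (adjusted p = 0.00333) in CAST and from -0.37 to -0.09 (adjusted p = 0.134) in PWK. The summed TPM of Cox5b and its copy ran the other way, with the highest mean in PWK (114 ± 20.4 TPM), followed by CAST, and means of 77.7 to 95.6 TPM in the other 6 strains. For Atp5g1, the copy Gm10039 had 88.4 ± 22 TPM in NOD and means of 22.5 to 44.6 TPM elsewhere, and the difference in NOD turned from -0.32 to 0.17 (adjusted p = 0.0285). For Atp5g2, only 2.96% of the summed TPM was listed under the member itself (5.02 TPM, beside 165 TPM for its copies), which leaves its own level uncertain, and its difference in NZO turned from -0.65 to 0.09. The number of nuclear members higher in WSB was 65 with copies added, and in 129 46 were lower, where 26.5% and 21% of all genes were.

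**Figure D4:**
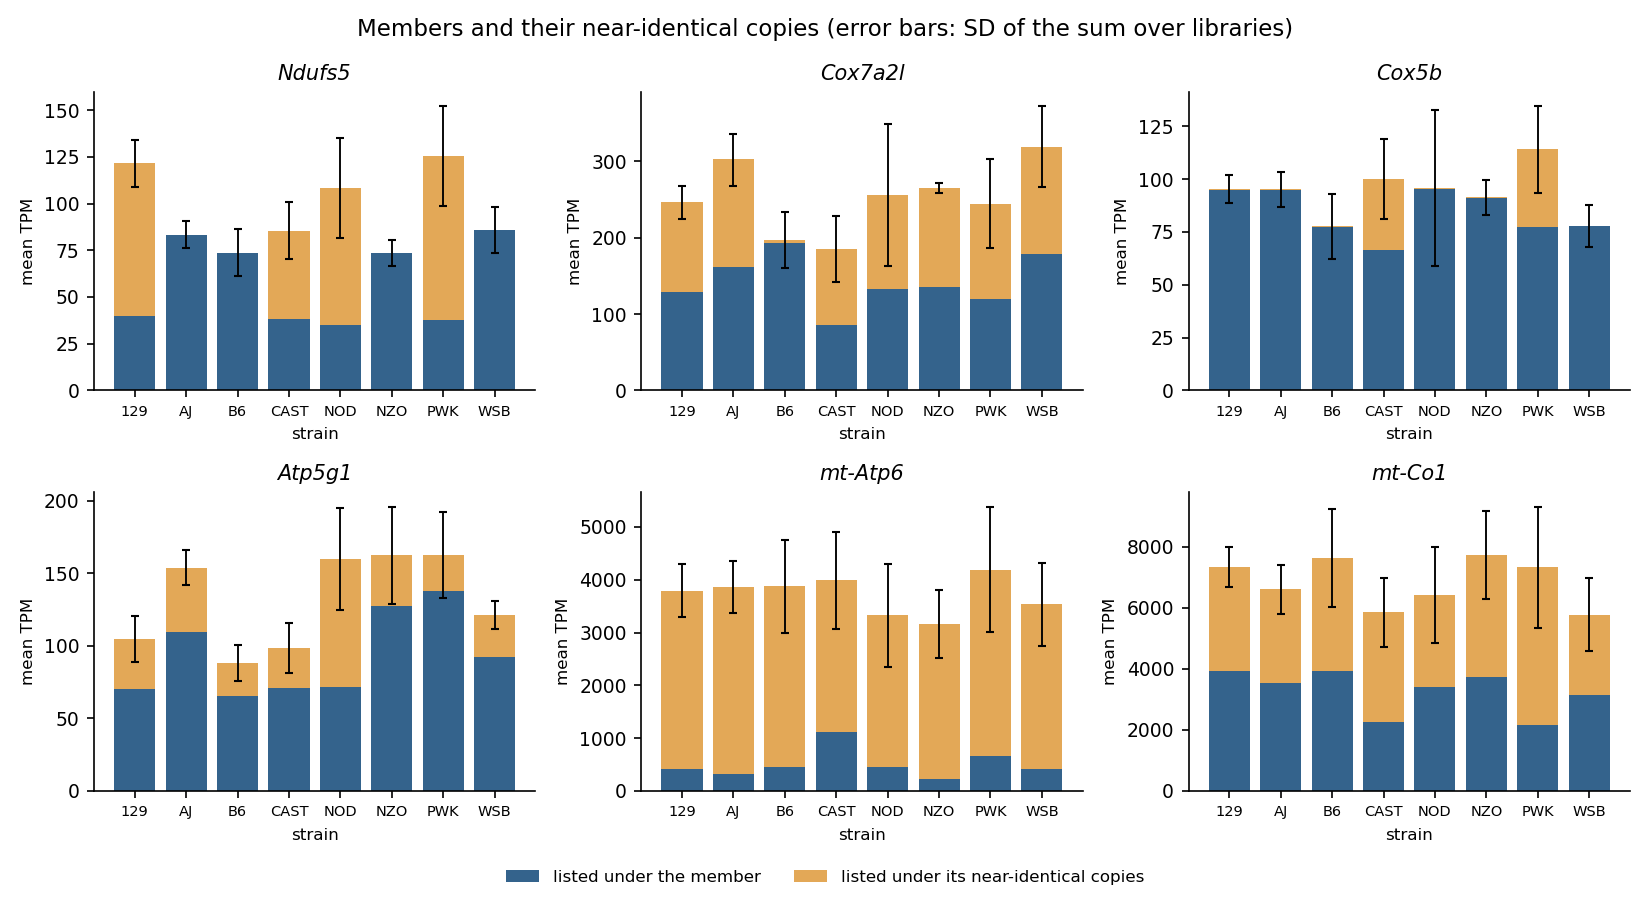
Mean TPM listed under 6 members (blue) and under their near-identical copies (yellow) by strain, with the SD of the sum over libraries. For Ndufs5 the copy is nearly absent in AJ, B6, NZO and WSB (0.13 to 0.30 TPM), for Cox7a2l it is nearly absent in B6 (4.42 TPM), and for Cox5b it is present in CAST and PWK.

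The 13 mitochondrial members had higher levels than the nuclear ones, with means of 282 to 3924 TPM. mt-Atp8 had 3924 TPM, mt-Co1 3311 TPM and mt-Cytb 2605 TPM. Together they took 1.86% ± 0.39 (SD, n = 91) of all TPM, from 1.59% ± 0.32 in NZO (n = 4) and 1.61% ± 0.39 in NOD (n = 10) to 2.13% ± 0.44 in B6 (n = 18), and the ranges of these strains overlapped. The copies of mitochondrial genes in the nuclear annotation added 15600 TPM to the 18650 TPM of the members. Only 14% of the summed TPM of mt-Atp6 and its copy was listed under mt-Atp6, and mt-Co2 ran from 0.04 to 704 TPM in the B6 libraries while its sum with copies ran from 2240 to 5964 TPM. In the B6 library where mt-Co2 was listed at 0.04 TPM, its copies were listed at 4475 TPM. Levels of mt-Atp6, mt-Co2, mt-Co3, mt-Nd3 and mt-Nd4l are therefore uncertain as listed.

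Most mitochondrial members were higher in B6 and in CAST. In B6, 12 of 13 were higher and none lower, with a median of 0.46, where 25.6% of all genes were higher and 27.6% lower. In CAST 10 were higher and 3 lower, with a median of 0.42, where 26.8% of all genes were higher and 31% lower. On log2(TPM + 1) the medians were 0.33 in B6 and 0.21 in CAST. There 8 were higher in B6 (7.58% of all genes), and 6 were higher and 2 lower in CAST (6.99% and 48.6%). In the sums of 16 samples 7 were higher in B6 (12.6% of all genes), 7 higher and 1 lower in CAST (16.2% and 19.5%) and 1 lower in AJ (16.4%). As a share of expected counts the members made up 1.37% in CAST, the same as the mean of all libraries (1.37%) and less than in 129 (1.48%) or B6 (1.59%). With copies added, 13 were higher in B6 (median 0.38) and 11 in CAST (median 0.34), with none lower in either, where 25.7% and 26.8% of all genes were higher. In NOD 7 were lower and none higher (median -0.33), where 29.6% of all genes were lower. With a covariate for the lymphocyte markers, which summed to 522 TPM in NOD, 2 stayed called lower, where 9.42% of all genes were, and the median was -0.20, and the part of these cells in the result was not tested. Within 129, NOD, NZO and PWK, 3 were lower and 2 higher in NOD (27.3% and 32.6% of all genes), the latter being mt-Nd2 (0.46, adjusted p = 6.40e-04) and mt-Co3 (0.98, adjusted p = 0.0033). In NZO 6 were lower and none higher (-0.38), and in AJ 5 were lower and none higher, where 14.3% and 32.1% of all genes were lower. Within AJ, B6, CAST and WSB, 11 were lower in AJ, where 27.7% of all genes were, with a median of -0.40. Within 129, NOD, NZO and PWK, 3 were lower in NZO (15.4% of all genes) and mt-Co1 was higher (0.38, adjusted p = 0.0205), with a median of -0.19. In 129 1 was lower (21% of all genes). The direction turned within 129, NOD, NZO and PWK, with 6 higher (26.5% of all genes) and none lower, and on log2(TPM + 1), with 3 higher (42.5%) and none lower. In PWK 2 were higher and 2 lower (23.2% and 21.8% of all genes). In WSB 2 were higher (26.5% of all genes). Within AJ, B6, CAST and WSB the direction turned, with 7 lower in WSB (27.8% of all genes), none higher and a median of -0.15. With copies added, 11 were lower in NOD (29.5% of all genes), 8 in NZO (14.2%) and 7 in AJ (32.1%). The sum over mt-Nd1, mt-Nd5, mt-Nd6, mt-Cytb and mt-Atp8, which have no such copy, was 193700 ± 21960 normalised counts (SD, n = 18; 136700 to 222400) in B6 and 194100 ± 19600 (n = 14; 159200 to 223400) in CAST, and 127800 ± 21030 (n = 10) in NOD and 133000 ± 19550 (n = 4) in NZO. The highest NOD library (159200) lay within the range of B6 and at the lower end of CAST.

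The members without a near-identical copy are given in more detail, from the fit to counts. On log2(TPM + 1) fewer mitochondrial members were called in B6, CAST and AJ. mt-Nd5, of complex I, had 58210 ± 7003 normalised counts in B6 (SD, n = 18; 41640 to 66040), a difference of 0.57 ± 0.06 (SE, adjusted p = 2.75e-15). mt-Nd6, the 1 member on the other DNA strand, was higher in B6 by 0.52 ± 0.06 and in CAST by 0.52 ± 0.06, with 13760 ± 1755 and 13770 ± 1814 counts, and lower in NOD by -0.41 ± 0.08 (7828 ± 1512). mt-Cytb, the cytochrome b of complex III, was highest in CAST at 86640 ± 9129 (n = 14; 70660 to 103500), a difference of 0.51 ± 0.05 (adjusted p = 2.00e-13). mt-Nd1 was lowest in NZO with 22320, 19810, 15520 and 22730 counts, a difference of -0.62 ± 0.11 (adjusted p = 3.15e-06), and highest in B6 at 38340 ± 4826 (0.46 ± 0.05). mt-Atp8 was higher in CAST at 11990 ± 1527 (0.40 ± 0.06, adjusted p = 2.07e-08), and shares 43 bases with mt-Atp6. mt-Nd4, whose copy Gm28439 was listed at 0 TPM in the mean, was higher in B6 (0.38) and CAST (0.42) and lower in AJ (-0.31) and NOD (-0.36).

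**Figure D5:**
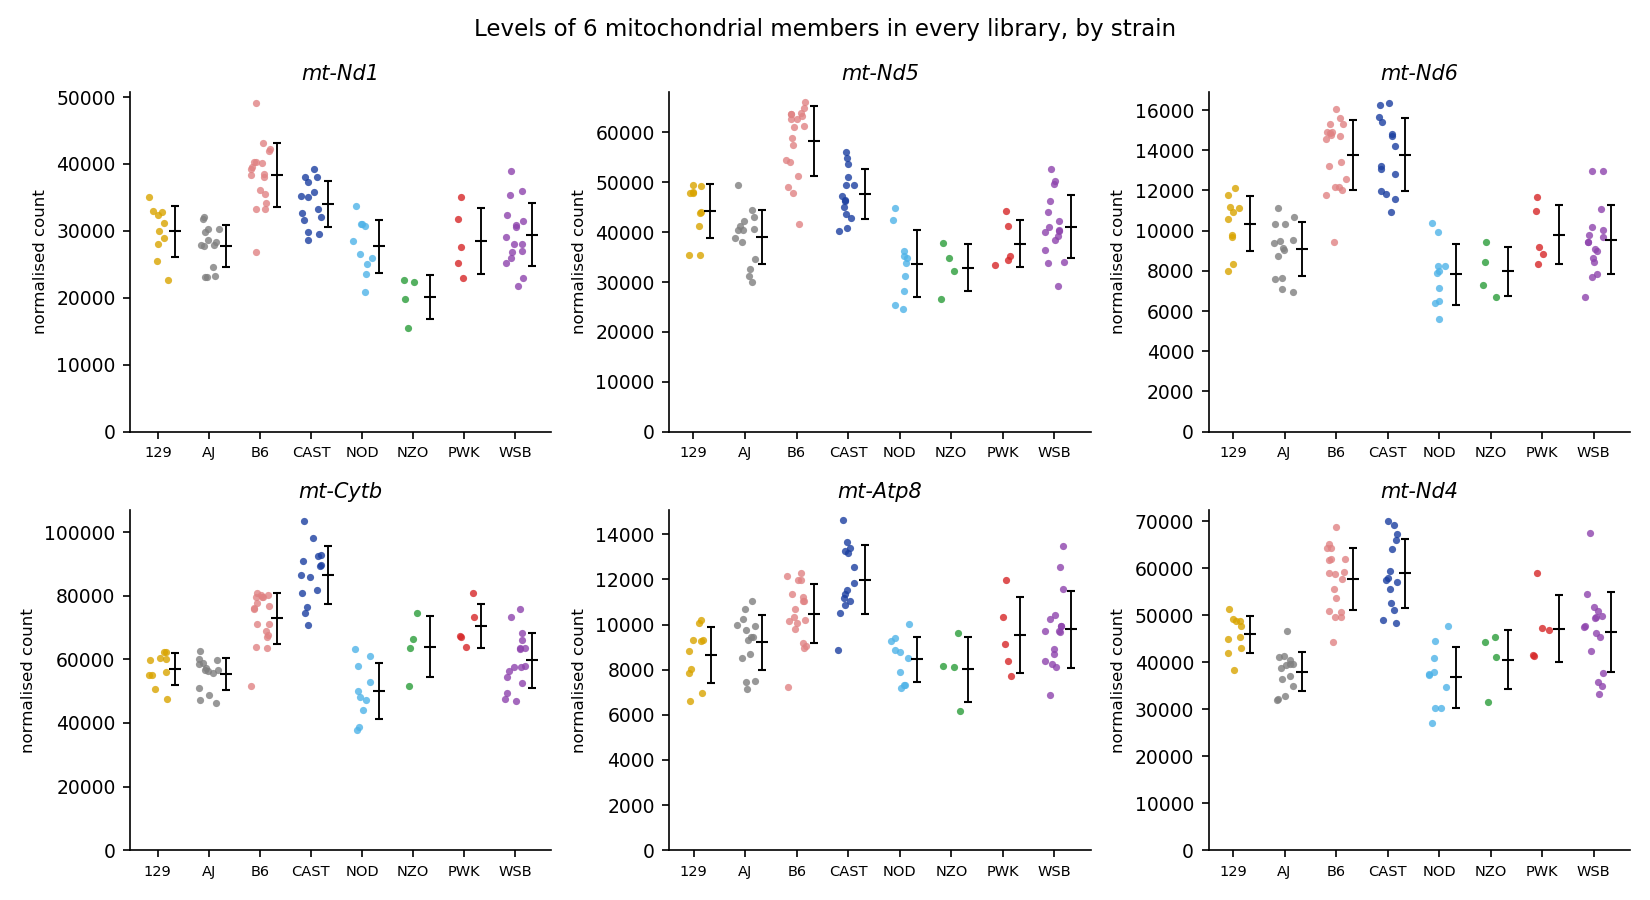
Normalised counts of 6 mitochondrial members in each library (dots) by strain, with the mean and SD beside them, on linear axes from 0. B6 (mean 58210) is highest for mt-Nd5, CAST (mean 86640) for mt-Cytb, and the 4 NZO libraries lie lowest for mt-Nd1 (15520 to 22730) and overlap with the lowest libraries of other strains.

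The values of members with copies changed when the copies were added. mt-Nd2, which shares 55 windows with Gm13339 on chromosome 2, was higher in CAST (33840 ± 4172 counts, n = 14; 0.82 ± 0.06) and lower in NZO (-0.92 ± 0.12) and in PWK (-0.76 ± 0.11), where the libraries had 15670, 10550, 10160, 16210 and 12210 counts. With the copy added these differences were 1.21, -1.08 and -0.14 (adjusted p = 0.281 in PWK). mt-Atp6 in CAST went from 1.71 ± 0.14 to 0.34 (adjusted p = 1.91e-07), and mt-Nd3 in B6 from 1.31 ± 0.12 to 0.74 (adjusted p = 1.03e-19). mt-Co1 in PWK went from -0.76 ± 0.10 to 0.08 (adjusted p = 0.476), and 29.5% of the summed TPM was listed under mt-Co1 itself in PWK, where it was 38.5% in CAST and 48.4% to 54.6% in the other strains. mt-Co2 had wide standard errors, with 0.78 ± 0.26 (adjusted p = 0.00846) in B6 and -0.82 ± 0.32 (adjusted p = 0.0225) in CAST, and the sums with copies differed by 0.27 and 0.03.

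A member was counted as selective where it was higher, or lower, in 1 strain than in each of the other 7. By this rule 22 nuclear and 7 mitochondrial members were higher in 1 strain, where 25.8% of all genes were, and 11 nuclear and 2 mitochondrial members were lower in 1 strain, where 21.7% of all genes were. The 22 comprised 12 members in WSB, 3 in B6, 2 each in AJ, CAST and NOD and 1 in PWK, with none in 129 or NZO. Of the 15217 genes tested, 286 were higher by this rule in WSB, 143 in B6, 215 in AJ and 382 in CAST. In NOD 1716 were, in PWK 615, in 129 222 and in NZO 344. The number of selective members depended on the fit: it was 38 with members counted in either direction, 13 on log2(TPM + 1), 9 in the sums of 16 samples, 25 with a covariate for lymphocyte markers, 66 within AJ, B6, CAST and WSB and 20 within 129, NOD, NZO and PWK, both of which hold fewer strains to differ from.

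The sexes differed for few members. Of the nuclear members, 1 was higher in females and 1 in males, where 1.95% of all genes were higher in females and 2.06% in males, and DESeq2 called the same numbers. Over all strains, no mitochondrial member was called by edgeR or DESeq2, and 0 had an unadjusted p under 0.05 in edgeR, the smallest being that of mt-Nd4l (0.0644). Cox7a2l was higher in females by 0.12 ± 0.03 (SE, adjusted p = 0.00292), and Cox6a2 was higher in males, the difference of females from males being -0.27 ± 0.07 (adjusted p = 0.0181). Neither was called on the TPM scale (adjusted p = 0.373 and 0.269) or in the sums of 16 samples (0.524 and 0.828). For Atp5h, next in order of p, the difference was 0.08 (adjusted p = 0.0607). Without the libraries whose sex-linked counts went against the label, 3 nuclear members were higher in females and 2 in males (4.87% and 4.92% of all genes), and within AJ, B6, CAST and WSB these numbers were 10 and 1 (3.01% and 2.73% of all genes). There, mt-Atp6 (0.34, adjusted p = 0.0493) and mt-Nd4l (0.35, adjusted p = 0.0237) were also higher in females.

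Other genes of the pathway were counted in the same way. Lists of further subunits, assembly factors, carriers, coenzyme Q synthesis and mitochondrial gene expression held 105 genes found in the files, of which 101 were tested. In WSB, 35 of the 101 were higher and 25 lower (median 0.02), and in 129 20 were higher and 15 lower (median 0.03), where all genes had 26.5% higher and 29.6% lower in WSB and 27.9% and 21% in 129. The further subunits, such as Usmg5 and Atp5mpl of the ATP synthase, had 3 of 6 genes higher in WSB and 3 of 6 lower in 129, with Usmg5 at 0.21 ± 0.04 (SE) in WSB and -0.22 ± 0.06 in 129. Atpif1, which inhibits the ATP synthase running in reverse, was higher in WSB by 0.57 ± 0.04 (adjusted p = 2.28e-23), and Ucp2, an uncoupling protein of the beta cell, by 0.45 ± 0.06 (adjusted p = 9.28e-11). Of 22 genes for mitochondrial biogenesis and mitochondrial DNA expression, 2 were higher and 11 lower in WSB, 9 higher and 2 lower in CAST, and 1 higher and 11 lower in AJ, where the shares of all genes were 26.8% higher and 31% lower in CAST and 24.9% and 32.1% in AJ. Among them Polrmt, the RNA polymerase of mitochondria, differed by -0.37 ± 0.05 (adjusted p = 4.73e-09) in WSB, and Ppargc1a, a coactivator, by -0.93 ± 0.26 (adjusted p = 0.00181). All 6 assembly factors of complex III were tested, with 4 higher in B6 (25.6% of all genes), 4 higher in CAST (26.8%) and 4 lower in NOD (29.6%).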

How the data were processed

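The authors aligned and quantified the mRNA libraries with RSEM against mm10 and GENCODE gene models (RSEM version not given in the sources used here), and deposited an expected count and a TPM value for each of 54146 genes in each library. The deposited expected counts are estimated, so that reads shared by near-identical genes were divided by the model, and whether strand was used is not stated. The deposited TPM values were scaled by the authors to a fixed sum in each library. Coordinates and gene types were taken from GENCODE M21 (GRCm38), in which 54079 gene identifiers were found and 67 were not.

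Expected counts were rounded. Among the 21710 autosomal and X-linked genes annotated as protein-coding, the 10% with the lowest variance and those with counts in under 85% of libraries were removed, which left 15204, and the 13 mitochondrial genes were added. Library sizes were scaled by the upper quartile of the nuclear genes, and a normalised count is a count divided by the relative library size. edgeR 4.0.16 (R 4.3.3) fitted strain and sex with its quasi-likelihood test, each strain was set against the equally weighted mean of the other 7, and p-values were adjusted by Benjamini-Hochberg over all 15217 genes, with a threshold of 0.05. Errors of log2 differences are SE and those of levels SD. The script was tested on simulated data. Alternatives used TMM or median-ratio scaling, other filters, limma-voom (limma 3.58.1), DESeq2 1.42.0, limma on log2(TPM + 1), other covariates, sums over the 16 samples of strain and sex, and fewer libraries. Adding the counts of copies was chosen after seeing the data.

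Library numbers from 1 to 65 belonged to AJ, B6, CAST and WSB and those from 66 to 100 to the other strains. No pair of libraries of a sample agreed within sampling noise (263 pairs, smallest chi-square per degree of freedom 8.23). Members and gene lists were chosen with earlier results of these data known. Genes were named if they were among the 10 nuclear members of the widest range over strains with at least 1 TPM, the 2 called members that differed most in each strain, the 12 most selective members, the 3 nuclear members with the smallest p for sex, a mitochondrial member, or a member of a list of core subunits and tissue isoforms. Others, such as Sdhc, Sdhd, Ndufs4, Ndufa9, Atp5s, the remaining members selective for WSB and the genes of the wider pathway, were named after their values were seen. A named member is not reported here.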

Additional observations from a re-analysis of the deposited data

Results flagged for a closer look

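In 84 groups of 4 to 10 libraries of a named member, 4 held a library far from the others by Dixon's criterion, where chance alone gives about 1 in 20. The highest NOD library of Atp5g1 had 1514 normalised counts and the next 1104. The lowest NZO library of Ndufb9 had 1201 and the next 1379. The highest PWK library of Cox5a had 730.5 and the next 672.4, and the highest PWK library of Uqcrq had 1479 and the next 967.7.

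The annotated nuclear copies of mitochondrial genes, which are no members, carried signal in every library, with a mean of 15600 TPM over the 91 libraries and a minimum of 7281 TPM.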

How the results depend on the processing

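Of the counts and shares, 469 alternative values lay within 1.5 times the value reported (for shares, within 1 SD), and 76 moved and 6 reversed. For the contrasts this compared the total called, higher and lower together. A reversal was counted only where both fits leaned clearly, and in opposite directions. Shifts of direction in evenly split contrasts, such as those of AJ and B6, were therefore not counted as reversed. Of the values for named genes, 641 kept call and direction, 21 lost and 3 gained a call and 4 reversed. The cause of the changes was not tested. No paired analysis was possible because the labels number no libraries across strains. Numbers of called members follow, and the share of all genes called changed with the fit too.

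On log2(TPM + 1), the nuclear members called were 19 in 129 (reversed), 67 in CAST, 17 in NOD, 8 in NZO, 13 in PWK (reversed), 17 in WSB and 0 for sex, the mitochondrial ones 3 in 129 (reversed), 2 in AJ, 8 in CAST and 1 in WSB (reversed), and 13 were selective. In sums of 16 samples, where fewer samples enter, 51 nuclear members had a strain effect, and 15 were called in 129, 7 in AJ, 10 in B6, 14 in CAST, 21 in NOD, 33 in WSB and 0 for sex, with 0 mitochondrial ones in 129, 1 in AJ, 7 in B6, 8 in CAST and 0 in WSB, and 9 selective. With acinar markers, 31 nuclear and 2 mitochondrial members were called in 129 and 3 mitochondrial in AJ. With lymphocyte markers, 7 nuclear and 2 mitochondrial members were called in NOD and 0 mitochondrial in WSB, and 25 were selective. Without libraries of opposite sex-linked counts, 19 nuclear and 0 mitochondrial members were called in 129 and 5 nuclear for sex. Within AJ, B6, CAST and WSB, 11 nuclear and 2 mitochondrial members were called for sex, 11 mitochondrial in AJ and 7 in WSB (reversed), and 66 were selective. Within 129, NOD, NZO and PWK, 50 nuclear members had a strain effect, 0 were called for sex, 6 mitochondrial ones in 129 (reversed), and 20 were selective.

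For the mitochondrial members of 129, 4 were called with TMM, median-ratio factors or DESeq2, 2 with voom, 5 without NOD and 2 with copies added. For those of WSB, 4 were called by DESeq2, for those of NOD 11 with copies, for those of PWK 2 with copies or without the sex term, and for sex 1 without NOD. Leaving out each NZO or PWK library in turn gave 1 to 4 mitochondrial members in 129 (4 without NZO replicate 1), 2 to 4 in PWK (2 without PWK replicate 5) and 1 to 2 in WSB (1 without NZO replicate 1 or PWK replicate 5), and 2 to 4 nuclear members for sex (4 without PWK replicate 1, the only PWK female). The mitochondrial share of expected counts was 1.48% in 129, 1.37% in AJ, 1.59% in B6, 1.37% in CAST, 1.13% in NOD, 1.24% in NZO, 1.13% in PWK and 1.31% in WSB, and of TPM with copies 3.66%, 3.32%, 3.79%, 3.62%, 2.92%, 3.14%, 3.72% and 3.09%.

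With copies added, Atp5g2 in NZO (0.0874), mt-Co1 in PWK (0.0833) and Ndufs5 in PWK (0.0214) reversed, and Atp5h between the sexes reversed within 129, NOD, NZO and PWK (-0.0449). Atp5g2 in NZO lost its call under 12 alternatives, among them the omission of any single NZO library (-0.72 to -0.54), and 5 PWK or 4 NZO libraries limit what can be seen in those strains.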

Other observations

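Cox8b, the heart and muscle form of the smallest complex IV subunit (chromosome 7, 140898945 to 140900446), did not pass the filter on low counts. It had counts in 15 of 16 WSB libraries, with a sum of 75, a median of 4 and a maximum of 11, and in 12 of the 75 libraries of the other strains, with a sum of 16. None of the 14 AJ libraries had a count. In the fit without the filter, the difference of WSB was called (edgeR, adjusted p = 2.71e-15), but its size rests on libraries at 0 and is not given. Cox7b2 had counts in 28 of the 91 libraries, with a sum of 47, and Cox8c in 1 library.

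The assembly factors of complex IV, with 24 genes tested, had 10 genes higher and 3 lower in WSB, and those of complex I, with 16 genes tested, 5 higher and 4 lower in WSB and 1 higher and 7 lower in AJ. Of all genes, 26.5% were higher and 29.6% lower in WSB and 24.9% and 32.1% in AJ.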
